A study of Mus musculus with 9 samples.

Results

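The serum amyloid genes Saa1, Saa2, Saa3, Saa4 and Apcs were followed in the liver of mice with and without a human colon cancer xenograft. All probe sets annotated to exactly 1 of these genes were taken, which gave 5 of the 12393 genes named on the array and 7 of its 22626 probe sets that were not controls. Saa1 and Saa4 had 2 probe sets each, and Saa2, Saa3 and Apcs had 1 each. All 7 passed the filter on dim signals. Each of the 3 groups held 3 livers. NT-Co livers came from mice with no tumour that received vehicle. T-Co livers came from mice that carried the human colon cancer TK-4 in the cecal wall and received vehicle. T-TSU livers came from mice with the same tumour given TSU68, an oral inhibitor of VEGF, PDGF and FGF receptor tyrosine kinases, at 400 mg/kg per day in 2 daily doses. Dosing of tumour-bearing mice began 7 days after implantation and lasted 1 week. The implanted animals were male BALB/c nu/nu mice, which lack a thymus and therefore most T cells, 6 weeks old at implantation, while for the tumour-free mice the sources used here name no strain, sex or age of their own. The tumour grew outside the sampled organ, and no operation on the tumour-free mice is described here, so tumour and implantation cannot be told apart. Nothing in the labels ties each liver to an animal of its own, so the p-values reflect only how these samples scatter, which may be technical.

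Serum amyloid A proteins are small apolipoproteins of high-density lipoprotein, and the liver is their main source in the acute phase response to inflammation. Interleukin-6, interleukin-1 and tumour necrosis factor induce the hepatic genes through STAT3, C/EBP and NF-kB factors. In mice Saa1 and Saa2 encode the circulating acute phase forms, Saa3 is also expressed by macrophages and fat cells, and Saa4 encodes the form regarded as constitutive. Apcs encodes serum amyloid P component, a pentraxin that binds amyloid fibrils and that in mice, unlike in humans, behaves as an acute phase protein. Long-lasting excess of serum amyloid A can lead to amyloid deposits in spleen, liver and kidney.

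The 4 Saa genes lay next to each other on mouse chromosome 7 in the RefSeq gene table, in the order Saa3, Saa4, Saa1 and Saa2, with only a long non-coding RNA gene and an Saa pseudogene between them, and Apcs lay on chromosome 1. The promoters of all 5 genes, taken as the 250 bases before the annotated start in RefSeq's GRCm38.p6 sequence and read 5′ to 3′, are shown because Saa1 and Saa2 are near-copies of each other while the other members are not. Capitals mark every match, on either strand, to the C/EBP core TTNNGNAA, the STAT motif TTCNNNGAA, the TATA box TATAAA or the NF-kB consensus.
Saa1 promoter, GRCm38.p6 chr7:46742981-46743230, minus strand: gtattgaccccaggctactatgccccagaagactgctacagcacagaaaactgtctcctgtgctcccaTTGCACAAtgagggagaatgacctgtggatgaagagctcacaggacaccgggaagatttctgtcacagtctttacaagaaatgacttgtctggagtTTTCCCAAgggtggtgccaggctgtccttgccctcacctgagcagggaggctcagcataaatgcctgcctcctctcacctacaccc
Saa2 promoter, GRCm38.p6 chr7:46751583-46751832, plus strand: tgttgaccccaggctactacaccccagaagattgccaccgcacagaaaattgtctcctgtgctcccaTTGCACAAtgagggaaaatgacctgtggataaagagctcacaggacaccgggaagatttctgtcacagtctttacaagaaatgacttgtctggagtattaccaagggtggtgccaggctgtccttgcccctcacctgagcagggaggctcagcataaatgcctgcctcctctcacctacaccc
Saa3 promoter, GRCm38.p6 chr7:46715677-46715926, minus strand: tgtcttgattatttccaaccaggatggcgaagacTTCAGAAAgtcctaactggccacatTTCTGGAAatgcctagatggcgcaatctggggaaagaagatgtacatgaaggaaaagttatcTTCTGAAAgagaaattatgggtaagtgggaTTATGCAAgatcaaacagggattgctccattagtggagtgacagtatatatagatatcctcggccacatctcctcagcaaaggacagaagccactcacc
Saa4 promoter, GRCm38.p6 chr7:46732604-46732853, minus strand: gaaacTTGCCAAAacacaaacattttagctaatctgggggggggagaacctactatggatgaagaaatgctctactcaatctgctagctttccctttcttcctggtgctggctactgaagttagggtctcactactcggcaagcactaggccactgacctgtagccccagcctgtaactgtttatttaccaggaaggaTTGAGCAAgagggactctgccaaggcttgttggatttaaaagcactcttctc
Apcs promoter, GRCm38.p6 chr1:172895055-172895304, minus strand: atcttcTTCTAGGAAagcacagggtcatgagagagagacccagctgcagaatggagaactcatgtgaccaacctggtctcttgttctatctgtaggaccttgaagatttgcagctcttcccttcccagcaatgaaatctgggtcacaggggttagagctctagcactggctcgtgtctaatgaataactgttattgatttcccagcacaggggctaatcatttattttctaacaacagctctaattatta
The Saa1 and Saa2 promoters had the same base at 238 of 251 aligned positions (94.8%), and Saa1 and Saa4 at 46.3%, within the 43.8% to 49.8% found for the pairs other than Saa1 with Saa2. Both held the C/EBP match TTGCACAA, which began 182 bases before the start of Saa1 and 183 bases before that of Saa2. Saa1 had a further C/EBP match, from 86 to 79 bases before its start, that Saa2 did not have. Saa3 held 4 C/EBP matches and Saa4 held 2. Apcs held no C/EBP match and was the only member promoter with a match to the STAT motif, TTCTAGGAA. The C/EBP core was found in 36.8% of all 32851 promoters of this length, the STAT motif in 7.02%, the TATA box in 12.4% and the NF-kB consensus in 7.25%. No member window held these letters of the TATA box or the NF-kB consensus. A match is a description of the sequence, not a binding site.

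Names of Saa1 and Saa2 need care. The annotation assigned probe set 1419075_s_at to Saa1, but RefSeq gave the accession it was designed from to Saa2, the same accession as that of the Saa2 probe set 1449326_x_at. Probe set 1450788_at carried an accession of Saa1 in both sources. RefSeq also listed each of these symbols as an older name of the other. The signals of these probe sets may therefore be shared between the near-identical transcripts, and below each is called by its annotated gene and probe set. Over the 9 arrays the log2 values of the 2 Saa1 probe sets had a Pearson correlation of 0.99, and those of 1419075_s_at and Saa2 one of 0.97, a description of probe sets measured on the same arrays.

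Array medians lay between 107.9 and 120.1 in intensity, and every array had the same trimmed mean. The 7 hepatocyte markers on the array all passed the filter. Their summed intensity was 162417 to 173215 in NT-Co, 205081 to 215666 in T-Co and 168903 to 186531 in T-TSU. In T-Co 4 of them rose against NT-Co (Cps1, Arg1, Tat and Ahsg), beside 4.19% of all probe sets tested. All 7 differences lay above 0, where 50.8% of all probe sets did, with a median of 0.46 on the log2 scale. The 3′ control probe set of beta-actin over its 5′ one, which tracks how intact the RNA was, gave 2.26 to 3.14 in NT-Co, 1.88 to 2.10 in T-Co and 1.79 to 2.16 in T-TSU. All NT-Co values of this ratio lay above those of both tumour-bearing groups. The Gapdh control did not separate the groups by the same ratio. T-TSU averaged 0.767 there and each other group 0.765, with single arrays from 0.71 (T-TSU replicate 14) to 0.85 (T-TSU replicate 12). Lower RNA quality in NT-Co was thus seen with beta-actin only, and its part in the differences below was not tested. As these are bulk samples, a change in cell numbers and a change in RNA per cell cannot be told apart.

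**Figure D1:**
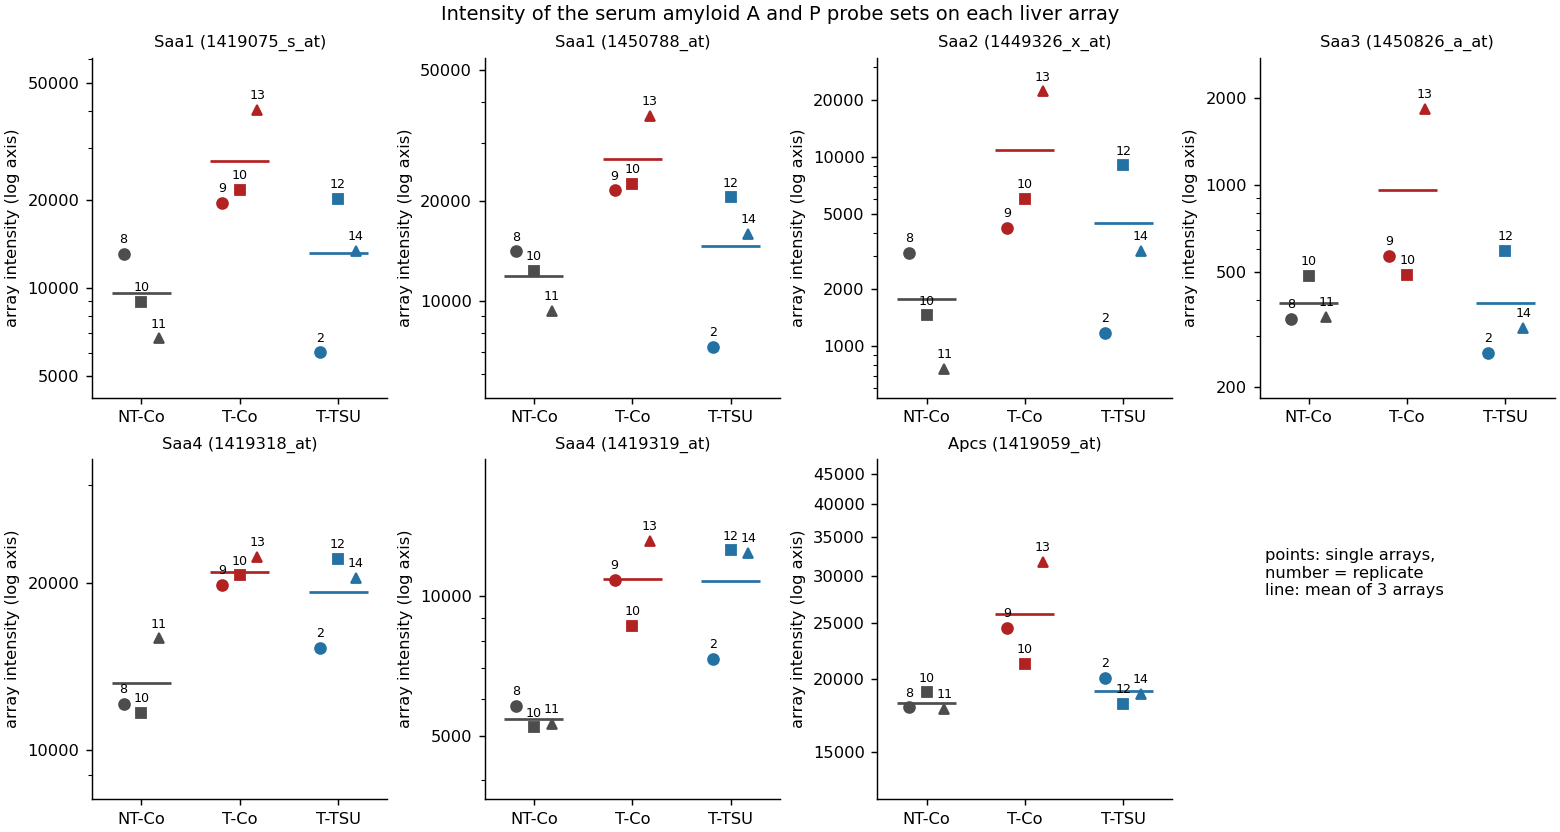
Array intensity (log axis, as deposited) of each of the 7 probe sets in NT-Co, T-Co and T-TSU livers; points are single arrays marked with their replicate number and lines are means of 3. T-Co replicate 13 was the highest of all 9 arrays on all 7 probe sets.

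The first comparison, T-Co with NT-Co, set mice with and without tumour side by side, all on vehicle. All 7 probe sets were higher in T-Co than in NT-Co with no overlap between the groups, where 14.4% of all 15838 probe sets tested were higher without overlap. By limma, 4 of the 7 rose at an adjusted p under 0.05, against 4.19% of all probe sets called higher, 2.39% called lower and 6.59% called in either direction. These 4 were 1 of the 2 Saa1 probe sets, both Saa4 probe sets and Apcs. The median difference of the 7 was 1.03 on the log2 scale, while that of all probe sets tested was 0.01. The members are not independent, since Saa1 and Saa2 share sequence and 2 genes have 2 probe sets each.

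The acute phase pair Saa1 and Saa2 had the largest fitted differences of the 7 probe sets. Saa1 by 1450788_at had intensities of 14081, 12300 and 9302 in NT-Co replicates 8, 10 and 11, and of 21550, 22550 and 36100 in T-Co replicates 9, 10 and 13. Every T-Co liver lay above every NT-Co liver, and replicate 13 stood well above its group. The difference was 1.15 ± 0.32 (SE) on the log2 scale, a 2.22-fold difference with a 95% confidence interval of 1.37 to 3.58, and it did not pass (adjusted p = 0.0513 by limma). It passed with a pseudocount of 32 (0.0474), with only these 2 groups fitted (0.0147), and without T-TSU replicate 2 (0.00877) or replicate 12 (0.0357). By 1419075_s_at, Saa1 had 13074, 8983 and 6731 in NT-Co and 19504, 21510 and 40435 in T-Co, in the same order of replicates. The groups again did not overlap, and this probe set rose by 1.47 ± 0.39, or 2.78-fold (adjusted p = 0.0426 by limma). The Saa1 probe sets thus fell on either side of the threshold, and the call of 1419075_s_at was lost without any of 6 arrays in turn, with adjusted p up to 0.158 without NT-Co replicate 11, and without the filter (0.0602), after quantile normalization (0.0554), without the intensity trend (0.129) or with a robust trend (0.160).

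Saa2 had the largest fitted difference. Its intensities were 3116, 1460 and 764 in NT-Co replicates 8, 10 and 11, and 4247, 6041 and 22284 in T-Co replicates 9, 10 and 13. The lowest T-Co liver was close to the highest NT-Co liver, and the NT-Co values already spread widely. The means were 1780 ± 1208 and 10857 ± 9937 (SD, n = 3), and the fitted 2.45 ± 0.72 was short of the threshold (adjusted p = 0.0646 by limma). Its 95% confidence interval ran from 1.83-fold to 16.2-fold. It passed when only the arrays of these 2 groups were fitted (0.0465), and without T-TSU replicate 2 (0.0400) or replicate 12 (0.0423), which are not among the arrays compared but enter the shared estimate of spread. Without T-Co replicate 13 the difference was 1.73, and it did not pass.

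Saa3, the member that macrophages also express, depended on a single liver. It had 344, 484 and 349 in NT-Co and 567, 488 and 1828 in T-Co. Replicates 9 and 10 of T-Co lay only slightly above the highest NT-Co value, and replicate 13 alone was far above. Saa3 differed by 1.03 ± 0.43, short of the threshold (adjusted p = 0.179 by limma), and it was 0.43 without T-Co replicate 13. Of the Kupffer cell and macrophage markers, 10 of 11 were on the array and all 10 passed the filter. Their summed intensity was 8024 to 10827 in NT-Co, 10196 to 15204 in T-Co and 4829 to 10066 in T-TSU. In T-Co 1 of the 10 rose, the haemoglobin scavenger receptor Cd163 (1.47 ± 0.36, adjusted p = 0.0312 by limma), beside 4.19% of all probe sets. Of the 10 differences from NT-Co, 9 lay above 0. In T-TSU against T-Co, 0 of the 10 lay above 0, with a median of -0.82, and limma called 0. There 8 of the 10 had an unadjusted p under 0.05, which 10.5% of all probe sets had. The part of macrophages in the Saa3 values was not tested. The adipocyte markers Adipoq, Lep and Retn, the 3 of 5 on the array, lay below the filter in the mean over all arrays.

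Both probe sets of Saa4 were called. By 1419319_at it had 5785, 5208 and 5300 in NT-Co and 10869, 8652 and 13217 in T-Co. All 3 T-Co livers lay far above a narrow NT-Co range. The rise was 0.99 ± 0.20, or 1.98-fold (95% confidence interval 1.46 to 2.68; adjusted p = 0.0132 by limma). By 1419318_at it had 12112, 11659 and 15871 in NT-Co and 19833, 20609 and 22244 in T-Co, again without overlap. This probe set rose by 0.67 ± 0.15, or 1.59-fold (adjusted p = 0.0201 by limma). The call of 1419319_at was lost without NT-Co replicate 11 (0.0532), that of 1419318_at without NT-Co replicate 8 (0.0831) or replicate 10 (0.0739), and both without the intensity trend (0.0708 and 0.0944).

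Apcs, the pentraxin, showed the smallest difference against a very narrow baseline. Its intensities were 17887, 18980 and 17800 in NT-Co and 24497, 21271 and 31779 in T-Co. The tumour-free livers lay close together, and every tumour-bearing liver on vehicle lay above them. The 7 hepatocyte markers had a median difference of 0.46 in this comparison, and Apcs was not tested against them. Apcs rose by 0.48 ± 0.13, or 1.40-fold (95% confidence interval 1.15 to 1.70; adjusted p = 0.0447 by limma). This call was lost with each array left out in turn except T-Co replicate 10 (adjusted p from 0.0157 without that array to 0.141), and with no filter (0.10), centred arrays (0.109), quantile normalization (0.121), no intensity trend (0.155) or only these 2 groups in the fit (0.0810).

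**Figure D2:**
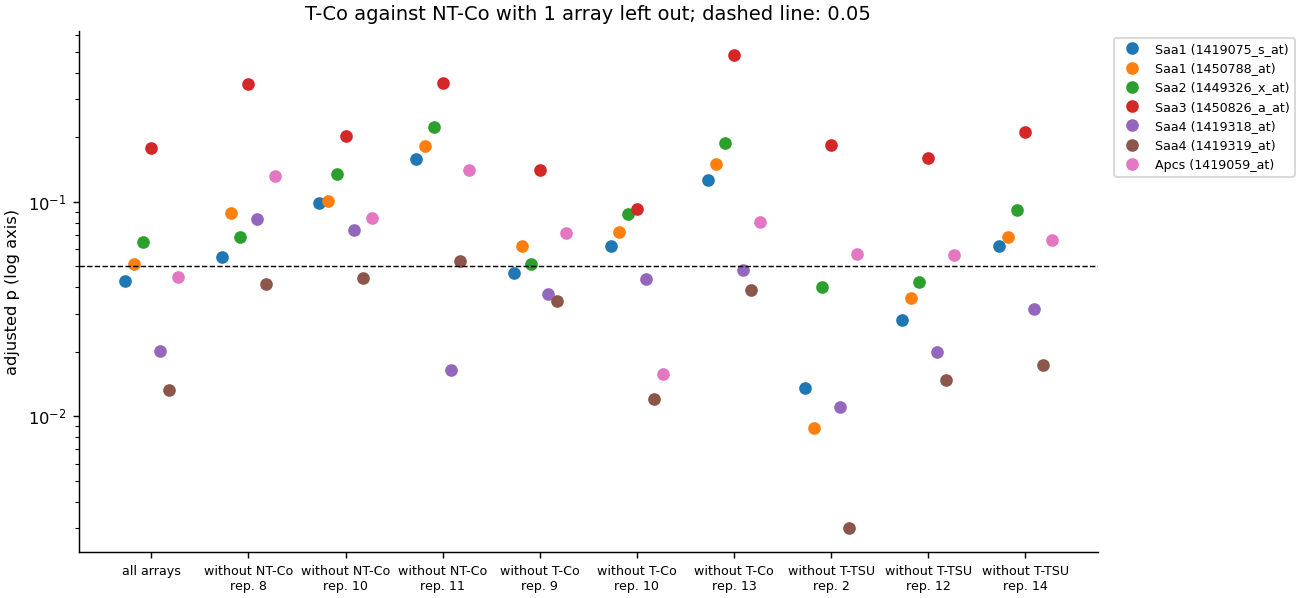
Adjusted p (log axis) of each probe set for T-Co against NT-Co with all 9 arrays and with each array left out; the dashed line marks 0.05. Saa4 by 1419319_at stayed under the line in 8 of 9 refits and Apcs in 1 of 9, while Saa3 stayed above it in all of them.

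The second comparison, T-TSU with T-Co, asked what the kinase inhibitor changed in tumour-bearing mice. The acute phase members had lower means under TSU68, those of Saa4 were within 0.14 of T-Co on the log2 scale, and no member passed. By limma 0 of the 7 probe sets were called, against 0.0505% of all probe sets tested, and 4 of the 7 had an unadjusted p under 0.05, against 10.5% of all. All 7 differences were below 0, as were 51.3% of all, and they ran from -1.35 to -0.04 on the log2 scale, with a median of -0.96 beside -0.01 for all probe sets tested. T-Co livers enter this comparison and the one with NT-Co, so the high values of T-Co replicate 13 raise the tumour difference and deepen this one. The 2 comparisons are not independent of each other.

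Among T-TSU livers, replicates 2, 12 and 14 had Saa1 intensities of 7255, 20514 and 15956 by 1450788_at. All 3 lay below the lowest T-Co value of 21550, while replicate 2 lay below every liver of the mice without tumour as well. The difference was -0.96 ± 0.32, with a 95% confidence interval of -1.65 to -0.27 (adjusted p = 0.319 by limma). By 1419075_s_at the values were 6030, 20098 and 13388, replicate 12 overlapped with T-Co, and the difference was -1.13 ± 0.39 (adjusted p = 0.331 by limma). Without T-TSU replicate 2 these differences were -0.52 and -0.65.

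Saa2 had 1185, 9049 and 3190 in T-TSU replicates 2, 12 and 14, a range that covered values of both other groups. Its difference from T-Co was -1.35 ± 0.72 (95% confidence interval -2.92 to 0.22; adjusted p = 0.555 by limma). It was -0.63 without T-TSU replicate 2, -0.64 without T-Co replicate 13 and -2.09 without T-TSU replicate 12, and did not pass in any of them. Saa3 had 263, 590 and 320, and differed by -1.10 ± 0.43 (adjusted p = 0.390 by limma), or by -0.51 without T-Co replicate 13. Replicate 12 was the highest T-TSU liver, and replicate 2 the lowest, for both genes.

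Apcs had 20112, 18134 and 18890 in T-TSU replicates 2, 12 and 14, all below the lowest T-Co liver at 21271. Non-overlap in this direction was found for 2 of the 7 member probe sets, Apcs and Saa1 by 1450788_at, and for 7.4% of all probe sets tested. Apcs differed by -0.42 ± 0.13, which missed the threshold (adjusted p = 0.287 by limma) and was -0.26 without T-Co replicate 13. T-TSU replicate 2, the lowest of its group for every Saa probe set, was the highest of its group for Apcs.

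Saa4 overlapped with T-Co on both probe sets. By 1419319_at it had 7313, 12578 and 12447 in T-TSU replicates 2, 12 and 14, a range that overlapped that of T-Co. The difference was -0.04 ± 0.20, with a 95% confidence interval of -0.48 to 0.40 (adjusted p = 0.968 by limma). By 1419318_at the values were 15253, 22056 and 20388, and the difference was -0.14 ± 0.15 (interval -0.46 to 0.19; adjusted p = 0.806 by limma). These intervals do not show that the level was the same, and the sign turned for both probe sets without T-TSU replicate 2.

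**Figure D3:**
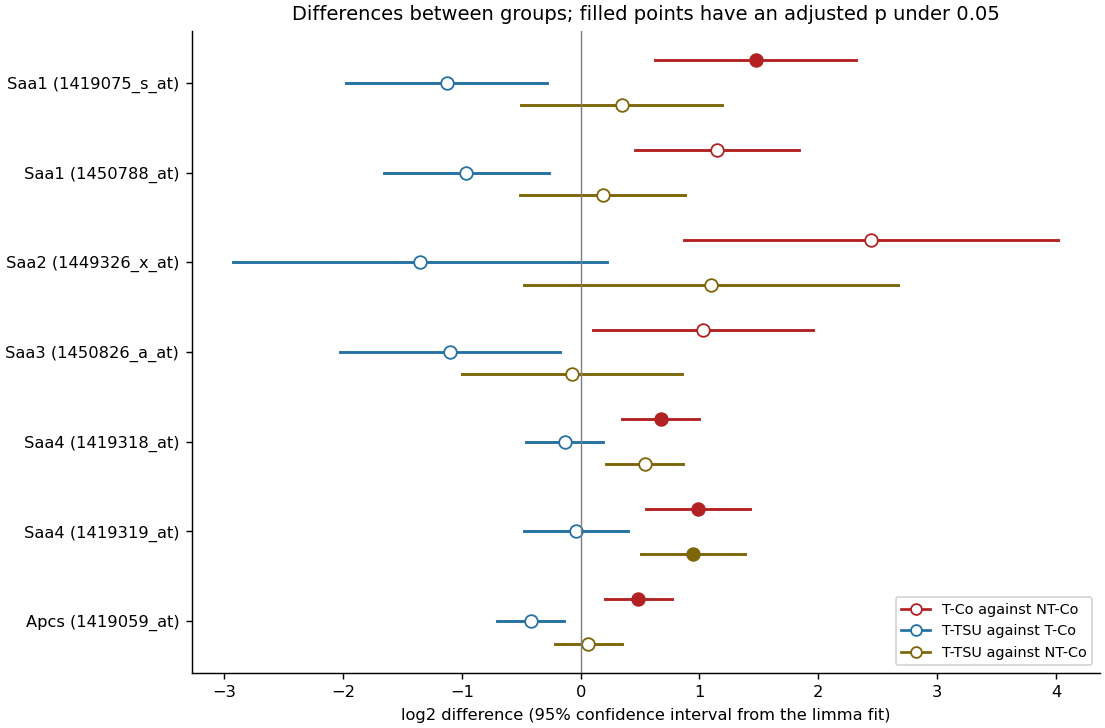
Log2 differences of the 7 probe sets in the 3 comparisons with 95% confidence intervals from the limma fit; filled points have an adjusted p under 0.05. The T-Co against NT-Co points all lie right of 0, from 0.48 to 2.45, and the T-TSU against T-Co points of Saa4 lie at -0.14 and -0.04.

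Compared with mice without tumour, the third comparison, TSU68-treated tumour-bearing mice differed in 1 probe set. Of the 7 probe sets 1 was called by limma, Saa4 by 1419319_at, where 3.93% of all probe sets tested were called in either direction, 2.56% higher and 1.37% lower. It rose by 0.95 ± 0.20, or 1.93-fold (adjusted p = 0.0212 by limma), without overlap between the groups, where 12.7% of all probe sets were higher without overlap. The call was lost without NT-Co replicates 8, 10 or 11 (0.0572, 0.0715 and 0.0796), without T-TSU replicates 12 or 14 (0.0982 and 0.102), and without the intensity trend (0.103). The other Saa4 probe set differed by 0.54 ± 0.15, its groups overlapped through T-TSU replicate 2, and it did not pass (adjusted p = 0.0693 by limma). It passed after quantile normalization (0.0351) and without T-TSU replicate 2 (0.0241) or NT-Co replicate 11 (0.0465).

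Of the remaining members, Saa1, Saa3 and Apcs lay nearer to the NT-Co mean than Saa4 did, and Saa2 did not. Apcs differed from NT-Co by 0.06 ± 0.13 (95% confidence interval -0.22 to 0.35) and Saa3 by -0.07 ± 0.43. Saa1 differed by 0.19 ± 0.32 by 1450788_at and by 0.35 ± 0.39 by 1419075_s_at. Saa2 differed by 1.10 ± 0.72, with an interval of -0.48 to 2.67 that is too wide to place it, and by 0.36 without T-TSU replicate 12 or 1.82 without T-TSU replicate 2. None of these passed, with adjusted p from 0.510 to 0.958 by limma.

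By group means the order was T-Co, then T-TSU, then NT-Co for Saa1, Saa2, Saa4 and Apcs, on each of their probe sets. Mean Saa1 intensity by 1450788_at was 26733 ± 8127 in T-Co, 14575 ± 6737 in T-TSU and 11894 ± 2416 in NT-Co (SD, n = 3), and the last 2 did not differ beyond their spread. Mean Apcs was 25849 ± 5383, 19046 ± 998 and 18222 ± 658, with the last 2 again within their spread. Mean Saa4 by 1419319_at was 10913 ± 2283, 10779 ± 3002 and 5431 ± 310, and here the first 2 did not differ beyond their spread. Mean Saa3 was 961 ± 752 in T-Co, 391 ± 175 in T-TSU and 392 ± 79.5 in NT-Co, and no comparison of Saa3 passed. Over the 3 groups together, limma's F test called both Saa4 probe sets (adjusted p = 0.0166 for 1419319_at and 0.0369 for 1419318_at) and no other member, where it called 5.75% of all probe sets.

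**Figure D4:**
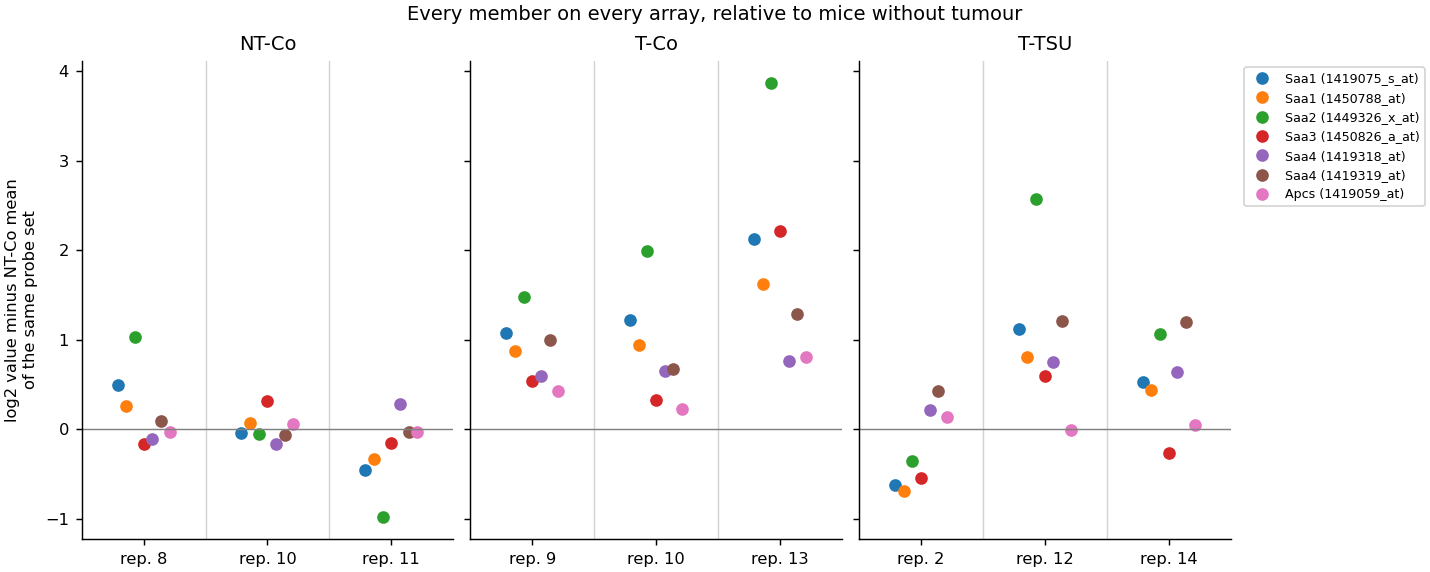
Log2 value of each probe set on each array minus the NT-Co mean of the same probe set, by group and replicate. On T-Co replicate 13 the values run from 0.76 for Saa4 by 1419318_at to 3.87 for Saa2, and on T-TSU replicate 2 the Saa1, Saa2 and Saa3 values lie below 0 while those of Saa4 and Apcs lie above it.

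Members varied together to different degrees from liver to liver. On T-TSU replicate 2, Saa1 differed from its NT-Co mean by -0.62 (1419075_s_at) and -0.69 (1450788_at) on the log2 scale, while Saa4 by 1419319_at lay 0.43 above its own. On T-TSU replicate 12, Saa2 lay 2.57 above its NT-Co mean and Apcs stood at -0.01. After removal of the group means, the log2 values of Saa2 and Saa1 by 1419075_s_at had a Pearson correlation of 0.98 over the 9 arrays, Saa3 and Apcs one of 0.71, and Saa1 by 1450788_at and Apcs one of 0.19. These describe probe sets that share arrays, and no test was made of them.

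The change of each member relative to Saa4 was then taken within each array, a measure chosen after the values were seen. The ratio of Saa1 to Saa4 (1450788_at to 1419319_at), as a log2 difference from its NT-Co mean, was -0.12, 0.27 and 0.34 in T-Co replicates 9, 10 and 13. It was -1.12, -0.41 and -0.75 in T-TSU replicates 2, 12 and 14, so the groups did not overlap. The difference of the means was -0.92 on the log2 scale, with a two-sided exact permutation p of 0.1, the smallest that 3 against 3 livers allow. Both Saa1 probe sets gave this non-overlap against both Saa4 probe sets, with differences from -1.09 to -0.83. These results are not independent, as the Saa1 probe sets had a Pearson correlation of 0.99 over the 9 arrays. The Saa3 ratio did not overlap against 1419319_at (-1.06) and overlapped against 1419318_at (-0.97). Those of Saa2 and Apcs overlapped between T-TSU and T-Co against either Saa4 probe set. Against 1419319_at, the Apcs ratio was lower without overlap in T-Co than in NT-Co (-0.50). Against the same probe set, T-TSU was lower than NT-Co without overlap for Saa1 by 1450788_at (-0.76), Saa3 (-1.02) and Apcs (-0.88). The share of such non-overlap among other gene pairs was not computed. Over all 30 ratio comparisons the lowest adjusted permutation p was 0.333. As no such p can be under 0.1, none could have passed, and nothing follows from this. A ratio within an array shows unequal change and not which of its members changed.

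**Figure D5:**
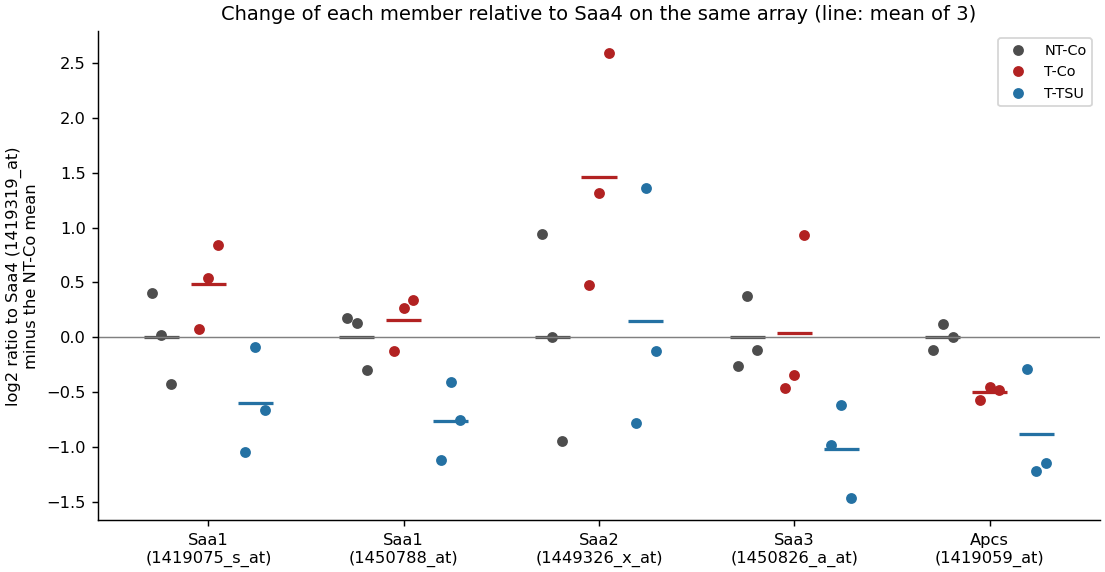
Log2 ratio of each member to Saa4 (1419319_at) on the same array, minus the NT-Co mean of that ratio; points are arrays and lines are means of 3. The Saa1 ratios of T-TSU livers, -1.12 to -0.41 by 1450788_at, lie below those of T-Co livers, -0.12 to 0.34.

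Of 20 listed cytokines and receptors that lead to serum amyloid A induction, 14 were tested, and in T-Co 3 rose and 1 fell, beside 6.59% called over all probe sets, with a median difference of 0.52. The interleukin-6 receptor Il6ra rose by 1.73 ± 0.30, from an intensity of 193 ± 30.7 to 687 ± 287 (adjusted p = 0.00572 by limma), its signalling partner Il6st by 0.81 ± 0.16 and the interleukin-1 receptor Il1r1 by 1.35 ± 0.32. The leukaemia inhibitory factor receptor Lifr fell by 1.74 ± 0.41 (adjusted p = 0.0257 by limma). In T-TSU against NT-Co, Il6ra was the 1 gene of this list called (1.87 ± 0.30, adjusted p = 0.00482 by limma), beside 3.93% of all probe sets.

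Of 31 listed signal and transcription factors 25 were tested, and 5 rose and 1 fell in T-Co, beside 6.59% called over all probe sets. The median difference was 0.04. Stat3, Cebpb and Cebpd, which act on acute phase promoters, and the NF-kB inhibitors Nfkbia and Nfkbiz rose, the latter also a nuclear cofactor. Cebpd rose by 1.85 ± 0.30 and Nfkbiz by 1.42 ± 0.25 (adjusted p = 0.00397 and 0.00634 by limma), although the other Cebpd probe set had the opposite sign. Ikbkg, a subunit of the kinase that activates NF-kB, fell by 0.76 ± 0.18, with 1 of its other 3 probe sets opposite in sign. In T-TSU against NT-Co, Stat3 (0.96 ± 0.15), Cebpb (1.71 ± 0.29) and Nfkbia (0.78 ± 0.17) were still called, beside 3.93% of all probe sets. In T-TSU against T-Co none of either list was called, and the smallest adjusted p was that of Nfkbiz, at 0.185 for a difference of -1.03 ± 0.25.

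Of 23 other tested genes that the acute phase raises, 9 rose in T-Co and 0 fell, beside 4.19% of all probe sets called higher. All 23 differences lay above 0, where 50.8% of all probe sets did, with a median of 0.57. The alpha-1-acid glycoprotein Orm3 rose by 1.31 ± 0.33, the lipopolysaccharide-binding protein Lbp by 1.10 ± 0.25 and the inter-alpha-inhibitor heavy chain Itih3 by 0.56 ± 0.13. Serpina3n, a secreted protease inhibitor, rose by 0.82 ± 0.17 and the secreted fibrinogen-like protein Fgl1 by 1.11 ± 0.16. The other 4 do not encode plasma proteins: the metallothioneins Mt1 (3.45 ± 0.57) and Mt2 (3.65 ± 0.59), the metalloreductase Steap4 (0.86 ± 0.21) and the zinc transporter Slc39a14 (1.06 ± 0.13). In T-TSU against NT-Co, Mt2 (2.66 ± 0.59) and Slc39a14 (0.64 ± 0.13) rose and 0 fell, beside 2.56% of all probe sets called higher. In T-TSU against T-Co all 23 lay below 0, where 51.3% of all probe sets did, with a median of -0.54. There limma called 0, with 20 at an unadjusted p under 0.05, which 10.5% of all probe sets had. The smallest adjusted p there was 0.0668, that of Serpina3n (-0.93 ± 0.17). Of 10 tested negative acute phase proteins, which the liver lowers in inflammation, 2 rose in T-Co and 0 fell. Of all probe sets 4.19% were called higher and 2.39% lower. The 2 were Ahsg (0.51 ± 0.10) and Fetub (0.85 ± 0.16), which encode fetuins, and 8 of the 10 differences lay above 0. In T-TSU against T-Co, 2 of the 10 lay above 0, with a median of -0.18, and limma called 0. There 6 had an unadjusted p under 0.05, beside 10.5% of all probe sets.

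Genes of proteins that bind or clear serum amyloid were counted in 4 lists, beside the 6.59% called over all probe sets. Of 13 tested partners on high-density lipoprotein and in its metabolism, 0 were called by limma in T-Co against NT-Co, with 2 at an unadjusted p under 0.05, which 22.3% of all probe sets had, and a median difference of 0.14. Apoa2, an apolipoprotein that shares these particles with serum amyloid A, differed by 0.15 ± 0.10, and the cholesterol exporter Abca1 by -0.38 ± 0.13 (adjusted p = 0.0955 by limma). Of 9 tested serum amyloid A receptors 1 rose, the scavenger receptor Cd36 (1.44 ± 0.27, adjusted p = 0.00923 by limma), and the formyl peptide receptor Fpr2 differed by 0.68 ± 0.36. Of 18 tested pentraxin, complement and Fc receptor genes 0 were called, with 5 at an unadjusted p under 0.05. C1qa, a chain of the complement component that binds serum amyloid P, differed by 1.09 ± 0.35 (adjusted p = 0.0858 by limma).

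Of 20 tested genes of amyloid breakdown and deposition, 2 rose in T-Co and 0 fell, beside 4.19% of all probe sets called higher. The lysosomal protease Ctsl rose by 0.60 ± 0.11 (adjusted p = 0.00590 by limma) and the heparan sulfate proteoglycan Sdc4 by 0.94 ± 0.18. In T-TSU against T-Co, 0 genes of these 4 lists were called by limma. Those at an unadjusted p under 0.05 were 1, 2, 7 and 4 for lipoprotein partners, receptors, pentraxin partners and amyloid turnover. Of all probe sets 10.5% had such a p. The matrix metalloprotease Mmp14 had the difference of -0.99 ± 0.19 (adjusted p = 0.115 by limma) and Ctsl one of -0.65 ± 0.11 (0.0568). In T-TSU against NT-Co, Sdc4 rose (0.70 ± 0.18), while Mmp14 (-0.79 ± 0.19) and the basement membrane collagen Col4a1 (-0.91 ± 0.22) fell. Of all probe sets 3.93% were called there.

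Neutrophil markers were dim, with a summed intensity of 680 to 1038 in NT-Co, 942 to 2329 in T-Co and 605 to 989 in T-TSU over the 9 of 11 on the array. Camp, Ltf and Cxcr2 lay below the filter, and by limma 0 of the 6 tested were called in T-Co against NT-Co. Of the 6, 4 lay above 0, while Mpo differed by -0.79 ± 0.81. At an unadjusted p under 0.05, which 22.3% of all probe sets had, were 2 of them. These 2 were S100a8 (1.59 ± 0.45) and S100a9 (1.23 ± 0.37), which macrophages also express. Lymphocyte markers lay below the filter for 7 of 8 on the array. In T-Co against NT-Co, 1 of 8 tested sinusoidal endothelial markers rose (Pecam1, 1.89 ± 0.50), and 1 of 7 stellate cell markers fell (Col3a1, -1.03 ± 0.20). Of 2 erythroid markers 1 fell (Alas2, -1.84 ± 0.38). Of all probe sets 6.59% were called in this comparison. The part of these cells in the member values was not tested.

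The genes whose log2 values followed each member most closely over the 9 arrays were found by Pearson correlation with its brightest probe set. Only genes other than the 5 members were ranked. For Saa1 they were Cyp3a13, a cytochrome P450, S100a8, a neutrophil and macrophage alarmin subunit, Lcn2, an acute phase siderophore-binding protein, C1qb and Nfkbiz, with r from 0.96 to 0.97. For Saa2 Lcn2 came first among them (0.97), followed by Ifrd2, Tial1, the glucose transporter Slc2a1 and Cyp3a13. Saa3 was followed by Paics, Dennd5a, the fatty acid-binding protein Fabp4, Gnl2 and the kininogen gene Kng1 (0.95 to 0.96). Saa4 was followed by Asrgl1, Slc25a51, Tns1, Gde1 and Trp53inp1 (0.95 to 0.97). Apcs was followed by Pabpc4, a poly(A)-binding protein, at 0.99, and by Serbp1, Ccpg1, Psmd13 and Pigf. Cyp3a13 and Lcn2 stood in the lists of both Saa1 and Saa2, and no gene in the list of Saa3, Saa4 or Apcs stood in that of another member. These genes were picked as the highest among all tested probe sets of other named genes, over 9 arrays that also differ by group, and they are given as a description.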

How the data were processed

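Liver RNA from 9 samples was measured on 3′ expression arrays. Per the labels' protocols, 5 µg of total RNA went into biotin-labelled cRNA. The deposited table holds linear intensities, 1 per probe set and sample, and every array has the same trimmed mean (500.3 with 2% removed at each end). No source used here names the summarisation software or a scaling step. Genes were named from the platform annotation, only where it gave 1 gene (20380 probe sets; 691 had several and 1555 none). The 64 control probe sets were left out.

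The log2 scale used here is log2(intensity + 7.92), with a pseudocount at the 10th percentile of all deposited values but those of controls, so fold changes of dim genes are understated. Probe sets under the 30th percentile of mean intensity (42.0) were left out, which removed 6788 and left 15838. The 9 arrays entered 1 limma fit of group means (version 3.58.1, R 4.3.3), with an intensity trend, two-sided tests, Benjamini-Hochberg adjustment over all 15838 and a threshold of 0.05. The number of arrays limits the precision. The fit was also run on data simulated with independent noise on each array, and no result of that run is used here.

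Every member probe set is named; a listed gene, by its brightest probe set, is named where called, and where fewer than 4 were called the 4 smallest p of its list could be named, of which the text gives some; 5 genes most correlated with each member are named. Members and lists were chosen with earlier results of these data known. Promoters were aligned with Biopython 1.88. Alternatives were other pseudocounts (1 and 32), filters, normalizations and variance models, fitting 2 groups only, and each array left out.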

Additional observations from a re-analysis of the deposited data

How the results depend on the processing

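All 7 member probe sets kept a positive T-Co against NT-Co difference under all 18 alternatives, and Saa1, Saa2, Saa3 and Apcs a negative T-TSU against T-Co difference. The 4 members called for T-Co against NT-Co became 5 with a pseudocount of 32 or with only the 2 groups fitted, 3 with centred arrays or a robust trend, 2 without the filter, 2 after quantile normalization and 0 without the intensity trend, and 1 to 5 with an array left out. For T-TSU against NT-Co the 1 member became 2 after quantile normalization and 0 without the trend (0 to 2 with an array left out), and for T-TSU against T-Co it stayed 0. Over all probe sets, the 1043 calls for T-Co against NT-Co became 470 without the trend (451 to 1015 with an array left out), the 622 for T-TSU against NT-Co became 262 (293 to 804), and the 910 of the F test became 311 (360 to 1013). The 8 calls for T-TSU against T-Co became 26 with a pseudocount of 32, 15 with a robust trend, 1 after quantile normalization, and 0 without the filter, with centred arrays, without the trend or with only 2 groups fitted (0 to 59 with an array left out). The cause was not tested. Signs turned for small differences. In T-TSU against T-Co, Saa4 by 1419319_at became 0.00099 after quantile normalization, 0.11 without T-Co replicate 13 and 0.22 without T-TSU replicate 2 (-0.20 to 0.22 with an array left out), and 1419318_at became 0.023 without T-TSU replicate 2 (-0.24 to 0.023). In T-TSU against NT-Co, Saa3 became 0.085 without NT-Co replicate 10, 0.16 without T-TSU replicate 2 and 0.024 without T-TSU replicate 14 (-0.41 to 0.16). Without T-TSU replicate 12, Saa1 became -0.041 by 1419075_s_at (-0.041 to 0.83) and -0.12 by 1450788_at (-0.12 to 0.63). A filter on the mean log2 value, added after seeing the data, changed no member call. No paired analysis was possible because the groups compared share fewer than 2 replicate numbers.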
